A study of Danio rerio with 36 samples.

Results

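The 4 genes of the photoreceptor light response described here were followed across zebrafish eye tissues: guca1d (ENSDARG00000044629), GUCA1A (ENSDARG00000101567), CNGA3 (ENSDARG00000012297) and RGS9 (ENSDARG00000045156). They are 4 of the 31916 genes listed in each of the 3 deposited gene tables, and all 4 were found by identifier. Symbols in capitals are those the gene table carries over from human orthologues, so the same symbol can stand for several zebrafish copies.

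The RNA libraries came from eyes at 1 month after fertilization and from larval eyes at 5 days, with 3 libraries in each of 12 groups. At 1 month, lrp2-/- mutants, which carry a mutation in the gene of the endocytic receptor megalin, were set against wild-type fish, whose libraries are titled ZDR. The fish lived at 28.5 C with 14 h light and 10 h dark. The tissues of both genotypes were whole eyes, retina, retinal pigment epithelium (RPE), and sclera with choroid, 24 libraries in all. At 5 days, whole larval eyes of transgenic fish were set against wild-type eyes of the same age, which gave the other 12 libraries. The first larval line carried hsp70l:eGFP-bmp4 and the other carried hsp70l:shha-eGFP, in both of which the hsp70l heat-shock promoter drives a fluorescent fusion protein. The labels give neither the lrp2 allele nor the heat-shock scheme, and they do not say whether libraries came from separate or pooled fish. The p-values below therefore rest on library-to-library spread alone, part of which may be technical.

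Photoreceptors hold a channel that cyclic GMP keeps open in the dark, and light closes it by way of transducin and a phosphodiesterase that breaks cyclic GMP down. The genes guca1d and GUCA1A code for guanylate cyclase-activating proteins, calcium sensors that speed the synthesis of cyclic GMP when calcium falls in the light. CNGA3 codes for the ion-conducting subunit of the cone channel. RGS9 codes for the protein that hastens the shut-off of transducin, in a complex with GNB5 and the membrane anchor RGS9BP. In zebrafish, guca1c and guca1d are known as activators of cones.

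The genes were chosen by measured values, with earlier results in view: guca1d, GUCA1A and CNGA3 were selected on the difference between mutants and wild type in whole eyes, and the value that selected RGS9 is not stated. The genotype differences of all 4 in whole eyes and retina, and what derives from them, are therefore given as descriptions without a test. Tests of the 4 genes are given for RPE, for sclera with choroid, for the larval lines and between the dissected wild-type tissues. TPM are transcript levels scaled by gene length to a common total per library. Log2 fold changes and their standard errors (SE) come from edgeR's quasi-likelihood test on counts, a gene was called at a Benjamini-Hochberg adjusted p under 0.05 over all genes tested, and means are given ± SD with n = 3.

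Total counts were between 17543328 and 26708423 per library. The dissected tissues carried the markers of their names, among those of other cells: 16 RPE genes summed to 14474 to 20606 TPM in lrp2 RPE and 19318 to 27215 TPM in wild-type RPE, but to 284 to 407 TPM in retina of both genotypes. The sum of 10 bipolar cell markers was near its retina level in RPE, at 1735 to 2340 TPM in RPE and 1359 to 2259 TPM in retina over both genotypes. Values of the single markers are not given here, so that sum may rest on few of them. Red blood cell markers in RPE summed to 2510 to 4498 TPM in lrp2 mutants and 15211 to 19062 TPM in wild type. The sclera samples held 9 fibroblast matrix genes at 8570 to 12674 TPM, beside 73102 to 92501 TPM of corneal and surface epithelium genes. Wild-type retina replicate 12 stood apart from its group, with 17202 TPM of lens genes against 114 and 135 TPM in its 2 companions. So did shha transgenic replicate 13, whose counts differed from those of its companions by a chi-square per degree of freedom of 195 and 258, against 19.6 between those companions. LRP2 transcripts were present in mutants, at 14.2 to 16.2 TPM in lrp2 retina and 20.1 to 21.1 TPM in wild-type retina, so the transcript level does not check the genotype of single libraries. bmp4 was at 118.8 to 147.4 TPM in its transgenic eyes and 3.46 to 3.84 TPM in their controls. Of the copies named SHH, ENSDARG00000068567 was at 14.4 to 94.6 TPM in shha transgenic eyes and 4.19 to 11.3 TPM in controls.

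In mutant eyes, guca1d was lower and GUCA1A higher than in wild type, with no overlap between the genotypes in whole eyes or retina. The share of all genes without overlap between groups is not given here, so lack of overlap is only a description throughout. guca1d was at 3.65, 4.31 and 6.26 TPM in lrp2 whole eyes, against 78.1, 49.9 and 39.3 TPM in wild-type whole eyes. In retina it was at 14.4, 7.27 and 5.71 TPM in lrp2 mutants and at 79.8, 77.6 and 63.7 TPM in wild type. Every mutant library was below every wild-type library in both tissues, and the highest mutant retina library had less than the lowest wild-type library of either tissue. The log2 fold change of guca1d was −3.66 (SE 0.31) in whole eyes and −3.04 (SE 0.34) in retina. Means were 4.74 ± 1.36 TPM in lrp2 against 55.8 ± 20.03 TPM in wild-type whole eyes, and 9.13 ± 4.64 TPM in lrp2 against 73.7 ± 8.74 TPM in wild-type retina.

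GUCA1A (ENSDARG00000101567) was at 211, 186 and 179 TPM in lrp2 whole eyes and at 70.7, 70.9 and 84.2 TPM in wild-type whole eyes. In retina it was at 258, 343 and 375 TPM in lrp2 mutants and at 171, 156 and 152 TPM in wild type. Here every mutant library was above every wild-type library, again in both tissues. The log2 fold change was 1.33 (SE 0.15) in whole eyes and 1.1 (SE 0.15) in retina. Within a library, GUCA1A exceeded guca1d 57.9-, 43.3- and 28.6-fold by TPM in lrp2 whole eyes, against ratios of 0.905, 1.42 and 2.14 in wild-type whole eyes. In retina the same ratio was 17.9, 47.2 and 65.8 in lrp2 mutants and 2.14, 2.01 and 2.39 in wild type. At 1 month the ratio thus lay between 0.905 and 2.39 in these wild-type libraries, and the 2 genes were far apart in mutants. In larval control eyes the ratio was 13.2, 2.67 and 6.33 for the bmp4 line and 20.1, 8.18 and 14.2 for the shha line. A wide gap between the 2 genes was therefore not limited to mutants.

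CNGA3 (ENSDARG00000012297) was at 4.16, 2.14 and 2.89 TPM in lrp2 whole eyes and at 14.4, 10.2 and 6.91 TPM in wild-type whole eyes. In retina it was at 5.89, 5.98 and 5.01 TPM in lrp2 mutants and at 16.1, 9.19 and 10.1 TPM in wild type. The groups did not overlap in either tissue, and wild-type values spread more widely than mutant ones. The log2 fold change was −1.89 (SE 0.31) in whole eyes and −1.09 (SE 0.20) in retina.

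RGS9 (ENSDARG00000045156) had the smallest log2 fold change of the 4 genes in both tissues. It was at 24.5, 30.0 and 27.6 TPM in lrp2 whole eyes and at 40.9, 43.2 and 40.6 TPM in wild-type whole eyes. In retina it was at 58.0, 50.6 and 47.3 TPM in lrp2 mutants and at 98.2, 82.3 and 85.2 TPM in wild type. Mutant and wild-type libraries did not overlap in either tissue, and the log2 fold change was −0.68 (SE 0.15) in whole eyes and −0.79 (SE 0.10) in retina.

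**Figure D1:**
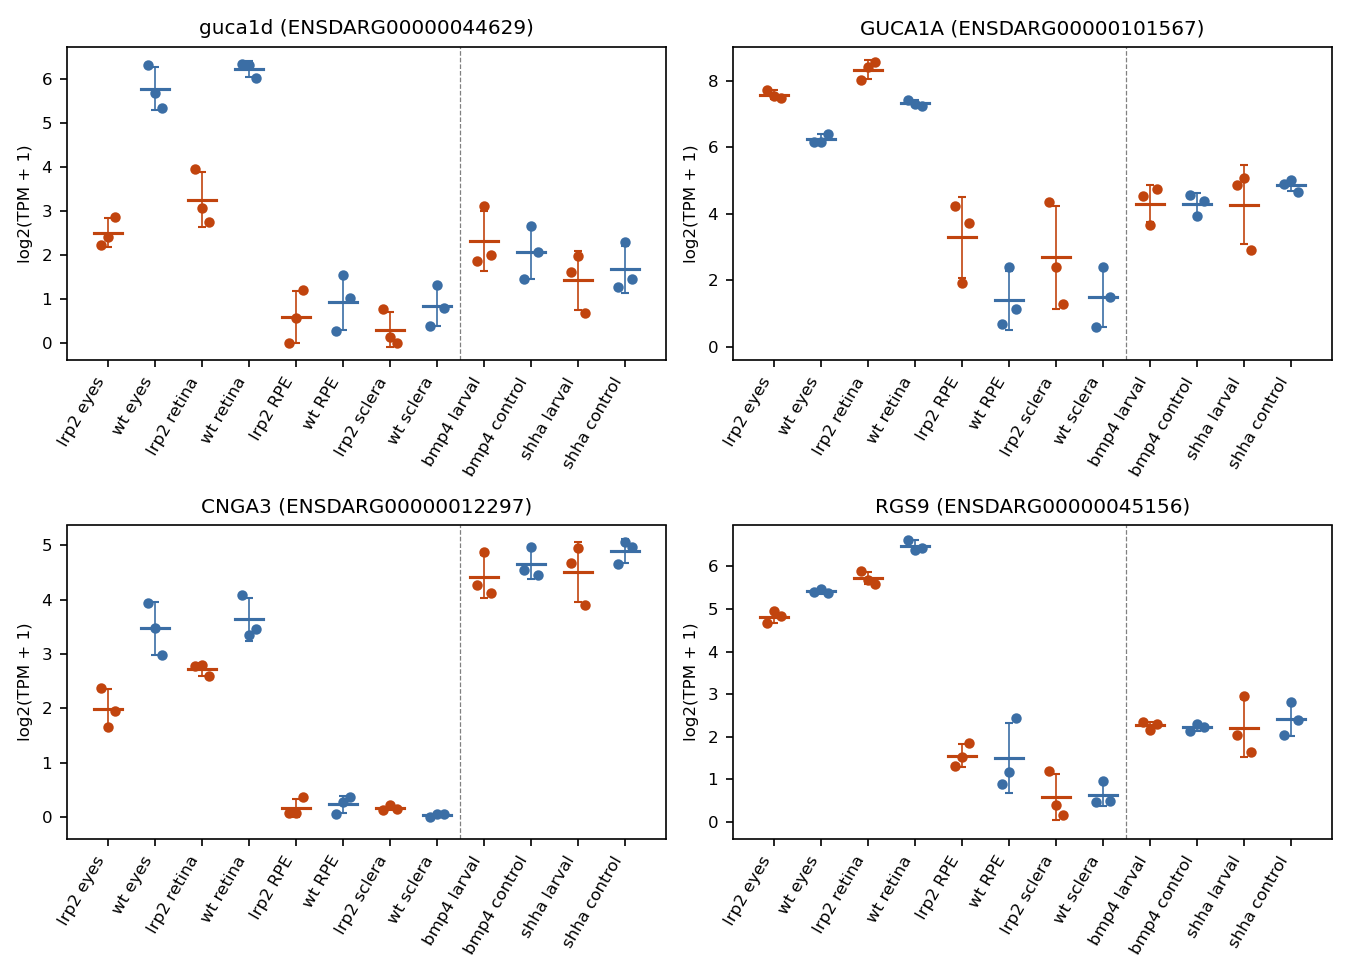
Level of each of the 4 genes in the 36 libraries, as log2(TPM + 1) on the vertical axis (each panel has its own range) and the 12 groups on the horizontal axis; points are libraries, lines are means and bars are SD of 3 libraries, red for lrp2 or transgenic and blue for wild type or control, and the dashed line parts the larval tables, which were scaled separately. In whole eyes and retina, guca1d, CNGA3 and RGS9 are lower and GUCA1A is higher in mutants. All 4 are lower in RPE and sclera with choroid than in retina of the same genotype. GUCA1A still reaches 17.9 TPM in lrp2 RPE and 19.7 TPM in lrp2 sclera, well above the bottom of its panel.

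Across all genes, 0.374% were called higher and 0.56% lower in lrp2 whole eyes, of 21411 tested, and 8.13% higher and 11.3% lower in lrp2 retina, of 20065 tested. Nothing is read from the 4 genes against these shares. guca1d, GUCA1A and CNGA3 were chosen on the whole-eye difference, the value that chose RGS9 is not stated, and the retina changes are treated alike. Without wild-type retina replicate 12, the library with lens genes, the retina log2 fold changes were −2.93 for guca1d, 1.14 for GUCA1A, −1.19 for CNGA3 and −0.77 for RGS9. The difference between the whole-eye and the retina change, taken from 1 fit of all 24 libraries, was −0.61 (SE 0.74) for guca1d, 0.23 (SE 1.08) for GUCA1A, −0.81 (SE 0.53) for CNGA3 and 0.10 (SE 0.65) for RGS9. For guca1d, GUCA1A and RGS9 it was smaller than its SE.

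These are bulk samples, in which fewer cells of a type and less RNA per cell cannot be told apart. In retina, 15 rod marker genes summed to 38271 to 42902 TPM in lrp2 mutants and 44305 to 50623 TPM in wild type, with 12 called lower and 0 higher. A set of 19 cone marker genes summed to 61344 to 73703 TPM in lrp2 retina and 45923 to 55698 TPM in wild-type retina, with 6 called higher and 6 lower. In whole eyes the rod sums were 25937 to 27749 TPM in lrp2 mutants and 27341 to 30542 TPM in wild type. The cone sums there were 25627 to 32532 TPM in lrp2 mutants and 24146 to 26910 TPM in wild type, and 0 genes of either list were called by edgeR. At an unadjusted p under 0.05 there were 4 rod genes lower and 3 cone genes higher with 5 lower, and DESeq2 called 3 rod and 2 cone genes lower. Of these lists, 11 rod and 15 cone genes also belong to the phototransduction genes counted below. Other cell types differed in whole eyes without overlap: 16 RPE markers summed to 1060 to 1224 TPM in lrp2 mutants and 487 to 848 TPM in wild type, and 5 red blood cell markers to 828 to 1815 TPM in lrp2 mutants and 2134 to 3210 TPM in wild type. The part of these shifts in the values of the 4 genes was not tested.

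The other 5 cyclase activators in the tables were not among the chosen genes and could be tested. guca1c (ENSDARG00000030758), the most abundant activator in wild-type whole eyes, was lower in lrp2 retina, at 128, 97.5 and 88.3 TPM, against 400, 265 and 257 TPM in wild-type retina (log2 −1.59, SE 0.21, edgeR adjusted p = 0.00342). In whole eyes it was at 37.3, 79.9 and 80.9 TPM in lrp2 mutants and 243, 217 and 180 TPM in wild type, without overlap, but its log2 change of −1.77 (SE 0.33) missed the threshold (edgeR adjusted p = 0.0653). GUCA1B (ENSDARG00000013393) was lower in lrp2 retina by a log2 change of −0.56 (SE 0.09, edgeR adjusted p = 0.00258). The second GUCA1A copy (ENSDARG00000100747) was higher there by 0.80 on the log2 scale (SE 0.23), just inside the threshold (edgeR adjusted p = 0.0479). guca1aa (log2 0.54, SE 0.28) and guca1g (log2 −0.42, SE 0.45) were not called in retina, and edgeR called 0 of these 5 genes in whole eyes, where DESeq2 called guca1c and guca1g lower. How reads of such related copies were divided is not given in the sources used here, so the level of any single copy is uncertain.

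As shares of their summed TPM, the activators were made up differently in mutants. The 7 activators together had 763 ± 41.0 TPM in lrp2 retina and 940 ± 129 TPM in wild-type retina. They had 470 ± 24.01 TPM in lrp2 whole eyes and 540 ± 68.6 TPM in wild-type whole eyes. GUCA1A (ENSDARG00000101567) made up 42.5 ± 6.07% of that sum in lrp2 retina and 17.1 ± 1.37% in wild-type retina. guca1c made up 13.8 ± 3.45% in lrp2 retina and 32.4 ± 4.10% in wild-type retina, and guca1d 1.22 ± 0.68% against 7.90 ± 1.14%. GUCA1B held 30.6 ± 1.80% in lrp2 retina and 35.9 ± 2.70% in wild-type retina. In whole eyes, GUCA1A held 40.9 ± 1.75% in lrp2 mutants and 14.2 ± 3.18% in wild type, and guca1c 14.3 ± 5.85% in lrp2 mutants and 39.4 ± 1.49% in wild type. GUCA1A was therefore the leading activator in both mutant tissues, while guca1c led in wild-type whole eyes and GUCA1B and guca1c held similar shares in wild-type retina.

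**Figure D2:**
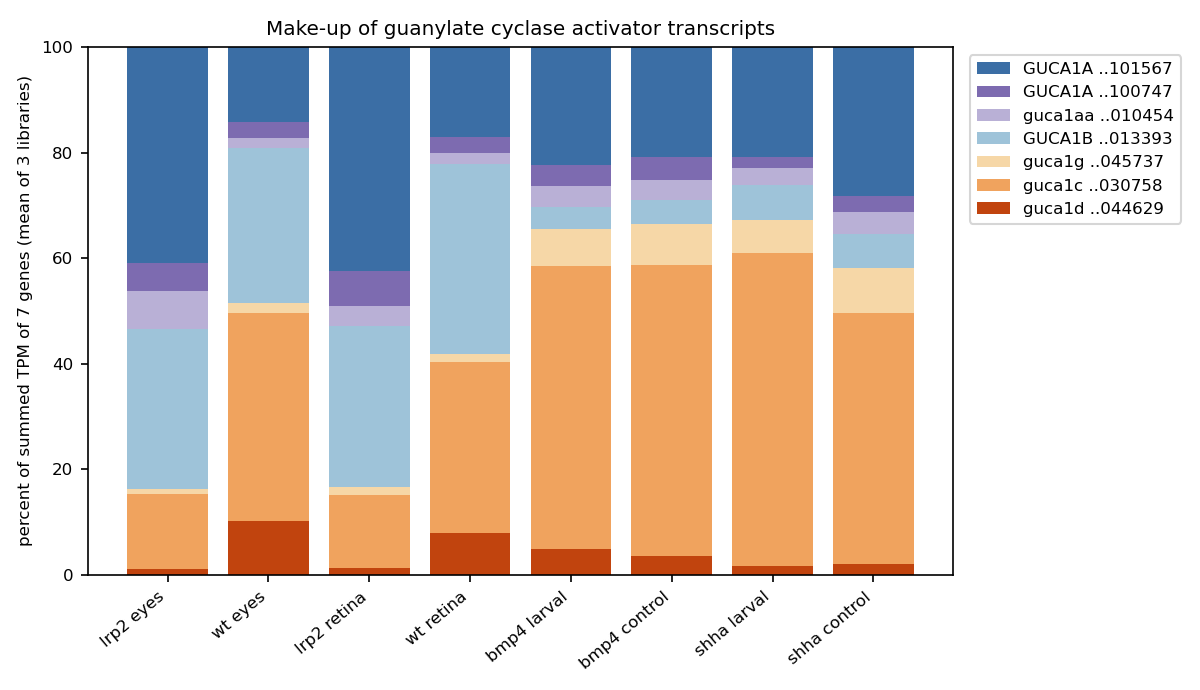
Share of each of the 7 guanylate cyclase activator genes in their summed TPM (vertical axis, percent, mean of 3 libraries) for the whole-eye, retina and larval groups (horizontal axis), with the end of each gene identifier in the legend. GUCA1A (dark blue) fills 40.9% and 42.5% in lrp2 whole eyes and retina, against 14.2% and 17.1% in wild type, and guca1c (light orange) leads in all 4 larval groups.

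The cyclases that these proteins activate were all lower in lrp2 retina. gucy2d, a photoreceptor guanylate cyclase, was at 113, 109 and 85.2 TPM in lrp2 retina and 301, 200 and 209 TPM in wild-type retina (log2 −1.25, SE 0.16, edgeR adjusted p = 0.00174). Its log2 change in whole eyes was −1.24 (SE 0.14, edgeR adjusted p = 0.0138), at 56.0, 38.0 and 53.1 TPM in lrp2 mutants against 115, 107 and 100 TPM in wild type. gc2 and gucy2f, related photoreceptor cyclases, were lower in lrp2 retina by smaller log2 changes of −0.41 (SE 0.10) and −0.37 (SE 0.10), with edgeR adjusted p of 0.0194 and 0.0274. In whole eyes neither was called, with log2 changes of 0.13 and −0.26.

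Among channel subunits, the second CNGA3 copy (ENSDARG00000070726) was not called, with a log2 change of −0.13 (SE 0.09) in lrp2 retina and −0.49 (SE 0.17) in lrp2 whole eyes. It held most CNGA3 transcripts at 1 month, so that ENSDARG00000012297 made up 5.91 ± 0.39% of both copies in lrp2 retina and 10.9 ± 3.21% in wild-type retina. In whole eyes that share was 7.59 ± 3.39% in lrp2 mutants and 17.3 ± 6.58% in wild type. Both copies together had 95.3 ± 7.06 TPM in lrp2 retina and 107 ± 4.79 TPM in wild-type retina. Both CNGA1 copies, the conducting subunit of the rod channel, were lower in lrp2 retina (ENSDARG00000012125, log2 −0.60; ENSDARG00000029898, log2 −0.55). cngb1b, a modulatory subunit, was lower as well (log2 −0.47), while cngb3.2, a modulatory subunit of the cone channel type, was higher (log2 0.63, SE 0.09, edgeR adjusted p = 0.00223). cngb1a (log2 0.23) and cngb3.1 (log2 −0.05) were not called in lrp2 retina, and in whole eyes 0 of the 8 other subunits tested were called by edgeR or DESeq2, with 2 lower at an unadjusted p under 0.05.

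Of the 6 other genes of the RGS9 complex, 4 were called lower in lrp2 retina and 0 higher, beside 11.3% lower and 8.13% higher over all genes. GNB5 (ENSDARG00000099685), the beta subunit bound to RGS9, fell by 0.67 on the log2 scale, and RGS9BP (ENSDARG00000086756), the anchor, by 0.58. rgs9bp (ENSDARG00000009466) fell by 0.41 and the second RGS9 copy (ENSDARG00000037925) by 0.39, with edgeR adjusted p from 0.00293 to 0.0283 over these 4 genes. The second GNB5 copy (ENSDARG00000055377, log2 −0.24) and RGS11 (log2 −0.10), a relative of RGS9 found in bipolar cells of mammals, were not called by edgeR, and DESeq2 called that GNB5 copy lower as well. In whole eyes 0 of the 6 were called by edgeR, by DESeq2 or at an unadjusted p under 0.05, with log2 changes between −0.63 and −0.09. RGS9 (ENSDARG00000045156) made up 27.3 ± 2.05% of both RGS9 copies in lrp2 retina and 33.1 ± 0.97% in wild-type retina. In whole eyes the share was 26.5 ± 5.06% in lrp2 mutants and 28.3 ± 4.10% in wild type, with overlap.

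**Figure D3:**
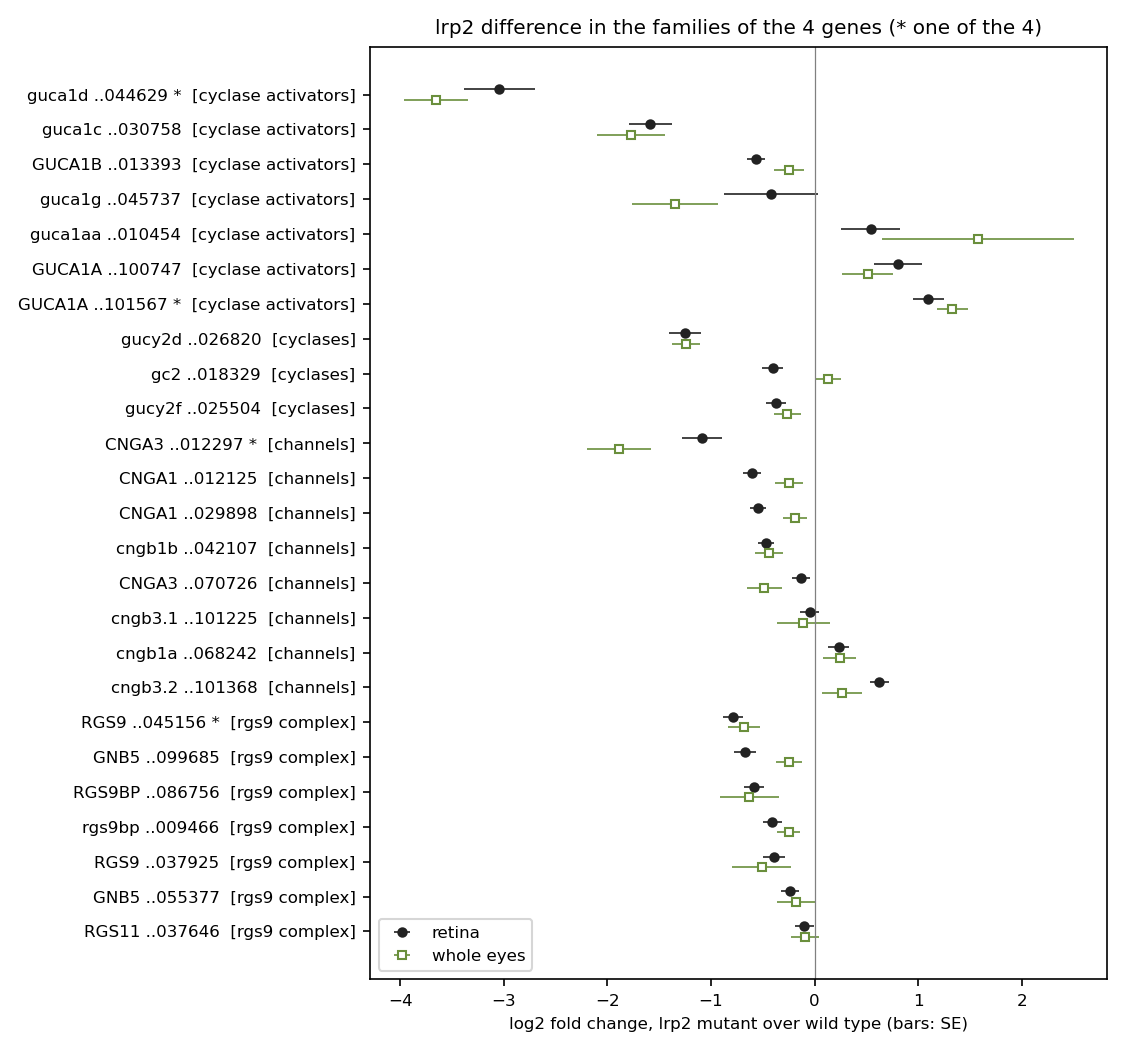
Log2 fold change of lrp2 mutant over wild type (horizontal axis) with SE for genes of the 4 genes' families and complexes (rows; an asterisk marks the chosen genes, and the last 6 digits of the identifier follow each symbol), in retina (filled circles) and whole eyes (open squares). guca1d is farthest to the left, at −3.04 and −3.66, GUCA1A and 2 other activators lie to the right of 0, and the genes of the RGS9 complex all lie left of 0.

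The wider phototransduction list had 78 genes in the tables, 74 besides the 4, in 12 roles. In lrp2 retina, 71 of the 74 were tested, and 36 were called lower (50.7%) and 11 higher (15.5%). Over all genes tested there, 11.3% were called lower and 8.13% higher. The median log2 change of the list was −0.36, against −0.01 over all genes tested. When all 24 libraries were fitted together, with 1 estimate of spread for every tissue, the retina calls of the list fell to 1 lower and 0 higher. The count of 11 higher was 5 without lrp2 retina replicate 13, 5 without wild-type retina replicate 11, and 7 without lrp2 retina replicate 11 or 12, while the count lower stayed between 25 and 37 with any library left out. In lrp2 whole eyes, 72 were tested, edgeR called 1 lower, gucy2d, and 0 higher, and DESeq2 called 10 lower, gucy2d and guca1c among them, and 0 higher, with a median log2 change of −0.23 against 0.01 over all genes. At an unadjusted p under 0.05, 16 were lower and 2 higher. Over all genes, edgeR called 0.56% lower and 0.374% higher in whole eyes, at the adjusted threshold. Here and below, list counts at an unadjusted p, under DESeq2 or in the fit of 24 libraries have no share of all genes at the same setting beside them. Nothing is read from those counts against the edgeR shares. The count of 1 lower became 0 without lrp2 eyes replicate 3 or wild-type eyes replicate 2, 2 without wild-type eyes replicate 1 and 6 without lrp2 eyes replicate 1.

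The counts by role below are of genes called in lrp2 retina, where 11.3% of all genes were called lower and 8.13% higher. Opsin kinases were lower for 3 of 4 genes, led by GRK7 (ENSDARG00000055534, log2 −1.30) and GRK7 (ENSDARG00000020602, log2 −0.80), with GRK1 at −0.56. Arrestins were lower for 2 of 4, both copies of the cone arrestin ARR3 (ENSDARG00000056511, log2 −1.48; ENSDARG00000098475, log2 −1.10). Of the recoverins, calcium sensors that restrain the opsin kinases, RCVRN (ENSDARG00000009637, log2 −1.40) was lower and the other 2 were not called. Sodium-calcium exchangers were lower for 4 of 5, SLC24A4 (ENSDARG00000067509, log2 −1.09), SLC24A1 (−0.92), SLC24A2 (ENSDARG00000063158, −0.85) and SLC24A4 (ENSDARG00000015425, −0.50). Phosphodiesterase subunits were lower for 5 of 7, among them PDE6C (−0.89), pde6ha (−0.82), PDE6H (−0.59) and PDE6B (ENSDARG00000011671, −0.55). The chaperone and phosducin group had 4 lower, namely PDC (ENSDARG00000017634, −0.70), TULP1 (−0.54), PDC (ENSDARG00000011886, −0.51) and AIPL1 (−0.42), and 2 higher, tulp1a (0.39) and UNC119B (0.23).

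Cone opsins and transducin subunits made up most of the 11 genes that were higher, a count that fell to as few as 5 with a library left out. Of 10 opsin genes tested in retina, 5 were higher in lrp2 mutants, and opn1mw3 (log2 0.82), opn1mw2 (0.67), opn1lw1 (0.61) and opn1lw2 (0.57) led them. Transducin beta subunits gnb3b (0.47) and GNB3 (0.33) were higher, while gnb1b (−0.40), gnb1a (−0.36) and GNAT1 (−0.25), the rod alpha subunit, were lower. GNAT2, the cone alpha subunit, was not called (log2 0.03, SE 0.08).

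RPE and sclera with choroid held little of the 4 genes. In wild type, GUCA1A and RGS9 were lower in RPE than in retina, with log2 changes of −5.99 and −4.97 (edgeR adjusted p of 3.29e-05 and 4.82e-06). Sclera with choroid was also below retina, with log2 changes of −5.69 for GUCA1A and −6.65 for RGS9 (edgeR adjusted p of 3.81e-05 and 8.77e-07). guca1d and CNGA3, which passed the filter on low counts through retina and whole eyes, had log2 changes of −5.82 and −5.68 in RPE, and guca1d had −5.92 in sclera. CNGA3 had 2 counts over the 3 wild-type sclera libraries and 741 over the 3 wild-type retina libraries. Per total count that is a ratio of 0.00243, with an exact binomial 95% interval of 0.000293 to 0.00879 that covers counting error only. Such differences are common between these tissues: 69% of all genes were called between wild-type RPE and retina, and 73.9% between sclera with choroid and retina.

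Between sclera with choroid and RPE of wild type, RGS9 was lower in sclera with choroid, at 0.39, 0.93 and 0.41 TPM against 0.84, 1.26 and 4.43 TPM in RPE (log2 −1.68, SE 0.57, edgeR adjusted p = 0.0292), in a comparison that called 49.6% of all genes. The call was lost without wild-type RPE replicate 13 (log2 −0.59), without sclera replicate 11 (−1.41), without sclera replicate 13 (−1.39) and with the replicate number as a block (log2 −1.41, adjusted p = 0.121). Wild-type RPE replicate 13 was also the library with the most rod markers, at 33.5% of their retina mean, against 5.33% and 9.31% in its companions, and the part of these in the RGS9 level was not tested. GUCA1A was not called between these tissues (log2 0.30, SE 0.68, edgeR adjusted p = 0.747). guca1d had 3, 14 and 7 counts in sclera against 2, 17 and 9 in RPE. CNGA3 had 2 counts over the sclera libraries and 13 over the RPE libraries, a ratio of 0.143 with an exact 95% interval of 0.0156 to 0.63 for counting error. Both genes entered that fit through retina and whole eyes, so no test is given for them.

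In wild type, whole eyes were also set against retina. The log2 changes of whole eyes over retina were 0.29 (SE 0.36) for guca1d, −0.34 (SE 0.63) for GUCA1A, 0.56 (SE 0.34) for CNGA3 and −0.40 (SE 0.43) for RGS9. The wild-type whole eyes also entered the choice of genes, so these values are descriptions and no test of the 4 genes is given. The comparison called 26.4% of all genes. By mean TPM, guca1d was in the order wild-type retina, wild-type whole eyes, lrp2 retina, lrp2 whole eyes, and then RPE and sclera of both genotypes, whose libraries overlapped. Retina and whole eyes overlapped within each genotype, so that the break in that order lay between the genotypes. CNGA3 had the same order, with overlap between wild-type retina and wild-type whole eyes but none between lrp2 retina and lrp2 whole eyes. RGS9 was in the order wild-type retina, lrp2 retina, wild-type whole eyes, lrp2 whole eyes, RPE and sclera, and GUCA1A in the order lrp2 retina, lrp2 whole eyes, wild-type retina, wild-type whole eyes. Each neighbouring pair of these 4 groups was without overlap for RGS9 and GUCA1A.

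In lrp2 RPE and sclera, 2 of the 4 genes had enough counts to be tested, and neither was called. GUCA1A was at 17.9, 2.77 and 12.4 TPM in lrp2 RPE and at 0.6, 4.27 and 1.19 TPM in wild-type RPE (log2 2.50, SE 0.90, edgeR adjusted p = 0.236). The DESeq2 Wald test gave a log2 change of 2.51 with an adjusted p of 0.0257, past the threshold. RGS9 was at 1.46, 1.89 and 2.58 TPM in lrp2 RPE and 0.84, 1.26 and 4.43 TPM in wild-type RPE (log2 −0.28, SE 0.69, edgeR adjusted p = 0.875), and the sign turned without wild-type RPE replicate 13 (log2 0.81). Of all genes, 1.37% were called between lrp2 and wild-type RPE. The share called in sclera with choroid was 6.64%. There GUCA1A was at 19.7, 4.33 and 1.47 TPM in lrp2 mutants and 0.52, 4.31 and 1.81 TPM in wild type (log2 2.00, SE 1.09, edgeR adjusted p = 0.313). With single libraries left out, the log2 change of GUCA1A lay between 2.04 and 3.61 in RPE and between 0.43 and 2.97 in sclera. RGS9 had a log2 change of −0.31 in sclera (SE 0.79, edgeR adjusted p = 0.833), and it turned positive without wild-type sclera replicate 12 (0.15) or lrp2 sclera replicate 13 (0.18).

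guca1d and CNGA3 did not pass the filter on low counts in either tissue. guca1d had 0, 4 and 13 counts in lrp2 RPE and 2, 17 and 9 in wild-type RPE, and 5, 1 and 0 counts in lrp2 sclera against 3, 14 and 7 in wild-type sclera. CNGA3 had 1, 1 and 8 counts in lrp2 RPE and 1, 5 and 7 in wild-type RPE. In sclera it had 2, 4 and 3 counts in lrp2 mutants and 0, 1 and 1 in wild type, the one case in these tissues where the groups did not overlap. The ratio of lrp2 to wild-type sclera per total count was 4.74, and its exact 95% interval of 0.981 to 45.1 includes 1.

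Set against the lrp2 change in retina in the fit of all 24 libraries, the change in RPE was higher by 2.22 on the log2 scale for guca1d (SE 1.04), 1.40 for GUCA1A (SE 1.1), 0.60 for CNGA3 (SE 0.84) and 0.52 for RGS9 (SE 0.69). In sclera it was higher by 1.04 for guca1d (SE 1.41), 0.87 for GUCA1A (SE 1.1) and 0.38 for RGS9 (SE 0.81). The sclera value of CNGA3, 3.00 (SE 1.08), rests on the 9 counts in lrp2 and 2 counts in wild-type sclera above. guca1d and CNGA3 entered this fit through retina and whole eyes, so their other values here also rest on the few RPE and sclera counts above. Nothing is read from the size of these values against their SE. All these differences hold the retina change, which is given as a description only, and were given no test.

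The other phototransduction genes were as sparse outside the retina. In wild type, 69 of 72 were lower in RPE than in retina and 70 of 72 lower in sclera with choroid than in retina. Over all genes, 69% and 73.9% were called in either direction in these comparisons. The 1 gene higher in both was CNGA2 (ENSDARG00000100436), a channel subunit known from olfactory neurons, at log2 changes of 3.91 in RPE and 4.92 in sclera. Some of the lower genes, guca1g among them, had too few counts for the lrp2 comparison in RPE or sclera and entered through retina or whole eyes. CNGA2 likewise had too few counts for the lrp2 comparison in retina. The direction of such genes was therefore largely set by the filter, and these counts are descriptions. Between lrp2 and wild-type RPE, 0 of 70 were called by edgeR or DESeq2, with 2 higher at an unadjusted p under 0.05. In lrp2 sclera, of 66 tested, the cyclase gucy2f was lower (log2 −1.07, SE 0.20, edgeR adjusted p = 0.0308) and the transducin subunit GNB3 was higher (log2 1.95, SE 0.44, edgeR adjusted p = 0.0476). DESeq2 called 4 higher and 1 lower there, and 8 were higher and 1 lower at an unadjusted p under 0.05. The median log2 change there was 0.75, with 59 of 66 positive, beside a median of 0.0014 over all genes.

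The low levels of GUCA1A and RGS9 in RPE and sclera stood in the same order over the libraries of a group as cone or rod markers. With 3 libraries few orders are possible, and how many other genes share them is not given here. As a percent of the mean in retina of the same genotype, GUCA1A was at 5.51, 0.851 and 3.8 in lrp2 RPE, beside cone marker sums of 5.83, 1.36 and 4.55. In wild-type RPE it was at 0.376, 2.67 and 0.745, beside cone marker sums of 0.882, 3.35 and 1.86. In sclera GUCA1A was at 6.06, 1.33 and 0.452 in lrp2 mutants beside cone marker sums of 5.44, 2.56 and 0.824. In wild-type sclera it was at 0.326, 2.70 and 1.13 beside 0.318, 2.28 and 1.18. Cone marker sums were 897 to 3842 TPM in lrp2 RPE and 435 to 1656 TPM in wild-type RPE. In each of these 4 groups GUCA1A and the cone marker sum put the 3 libraries in the same order. RGS9 followed the rod markers instead in RPE: it was at 2.81, 3.64 and 4.97 in lrp2 RPE beside rod marker sums of 4.04, 6.34 and 12.6, and at 0.949, 1.42 and 5.00 in wild-type RPE beside 5.33, 9.31 and 33.5. In sclera, cone and rod markers had the same order, and RGS9 shared it, at 2.46, 0.616 and 0.231 in lrp2 mutants and 0.44, 1.05 and 0.463 in wild type. On few counts, guca1d had the rod marker order in lrp2 RPE, at 0, 5.26 and 14.1. In wild-type RPE, at 0.271, 2.56 and 1.37, and in sclera of both genotypes it had the cone marker order. CNGA3, also on few counts, had the rod marker order in wild-type RPE, at 0.34, 1.78 and 2.46. In lrp2 RPE it was at 0.889, 0.889 and 5.15, highest in the library with the most rod markers. CNGA3 had neither order in lrp2 sclera, at 1.78, 2.84 and 1.95, and in wild-type sclera it was at 0, 0.34 and 0.34, with a tie. Whether retinal RNA in these samples sets the levels was not tested.

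**Figure D4:**
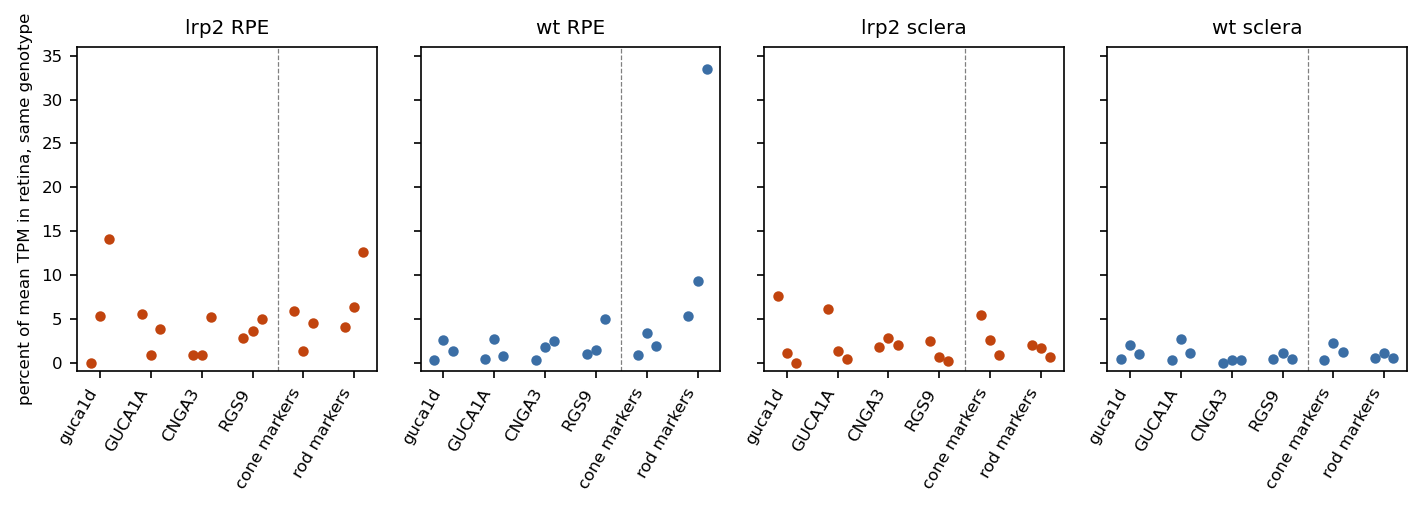
Levels in RPE and sclera with choroid as a percent of the mean TPM in retina of the same genotype (vertical axis), for the 4 genes and for the summed cone and rod markers (horizontal axis), 1 point for each library, in replicate order from left to right. GUCA1A and the cone markers have their highest point in the same library of each panel, and the rod markers of wild-type RPE reach 33.5%.

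In larval eyes neither transgene moved any of the 4 genes past the threshold. guca1d was at 2.61, 7.59 and 2.98 TPM in bmp4 transgenic eyes and 1.71, 5.32 and 3.18 TPM in their controls (log2 0.28, SE 0.52). GUCA1A was at 22.0, 11.7 and 25.7 TPM in bmp4 transgenic eyes and 22.6, 14.2 and 20.1 TPM in controls (log2 −0.03, SE 0.29). CNGA3 was at 18.4, 28.3 and 16.4 TPM in bmp4 transgenic eyes and 22.5, 30.5 and 20.9 TPM in controls (log2 −0.30, SE 0.20). RGS9 was at 4.05, 3.47 and 3.90 TPM in bmp4 transgenic eyes and 3.4, 3.92 and 3.67 TPM in controls (log2 0.00, SE 0.15). All had an edgeR adjusted p of 0.999, in a comparison that called 0.105% of genes, 22 in all, or 609 with the replicate number as a block. With that block CNGA3, lower in the transgenic library of every pair, had a log2 change of −0.31 (SE 0.08, adjusted p = 0.0608).

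In shha transgenic eyes, guca1d was at 2.03, 2.93 and 0.6 TPM, against 1.42, 3.85 and 1.71 TPM in controls (log2 −0.13, SE 0.53). GUCA1A was at 28.0, 32.8 and 6.49 TPM in shha transgenic eyes and 28.6, 31.5 and 24.3 TPM in controls (log2 −0.05, SE 0.30). CNGA3 was at 24.6, 30.1 and 13.9 TPM in shha transgenic eyes and 24.1, 32.4 and 30.4 TPM in controls (log2 −0.05, SE 0.19). RGS9 was at 3.1, 6.73 and 2.1 TPM in shha transgenic eyes and 3.11, 6.03 and 4.24 TPM in controls (log2 0.05, SE 0.37). The groups overlapped for all 4 genes, and shha transgenic replicate 13 was the lowest library for each of them. Without that library the log2 changes were 0.11 for guca1d, 0.21 for GUCA1A, −0.08 for CNGA3 and 0.09 for RGS9, none called by edgeR. edgeR adjusted p was between 0.942 and 0.970, and 0% of genes were called in the shha comparison, with 113 at an unadjusted p under 0.05 and 2 called by DESeq2. With the replicate number as a block, none of the 4 was called in shha eyes (edgeR adjusted p from 0.828 to 0.939). Of the other phototransduction genes, 0 of 71 tested for bmp4 and 0 of 70 tested for shha were called by edgeR or DESeq2. At an unadjusted p under 0.05 there were 3 for bmp4, 1 higher and 2 lower, and 0 for shha. These fits left out the replicate number, by which larval libraries deviated together, so changes within pairs could be missed. Counts of this list with the block are not given here. The signs of guca1d, GUCA1A and RGS9 turned in both lines, and that of CNGA3 in the shha line, when single libraries were left out.

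The balance of gene copies differed between 1-month and larval eyes. These shares are taken within each library, so that the separate scaling of the tables does not enter, but age and table differ together and no test was made. CNGA3 (ENSDARG00000012297) made up 17.3 ± 6.58% of both CNGA3 copies in wild-type whole eyes at 1 month. In larvae it made up 62.8 ± 4.12% in bmp4 transgenic eyes and 69.5 ± 1.86% in their controls, and 67.4 ± 6.80% in shha transgenic eyes and 66.3 ± 5.26% in theirs. No larval library overlapped a 1-month whole-eye or retina library. RGS9 (ENSDARG00000045156) had the opposite order, with 28.3 ± 4.10% of both RGS9 copies in wild-type whole eyes at 1 month, against 9.87 ± 1.06% in bmp4 transgenic larval eyes and 11.4 ± 1.54% in their controls. Among the larval activators, guca1c held 53.6 ± 4.34% in bmp4 transgenic eyes and 55.0 ± 1.79% in controls, and 59.2 ± 12.0% in shha transgenic eyes and 47.5 ± 8.17% in controls. GUCA1B held 29.5 ± 3.03% of the activators in wild-type whole eyes at 1 month, against 4.07 ± 1.40% in bmp4 transgenic larval eyes and 4.55 ± 0.48% in controls.

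**Figure D5:**
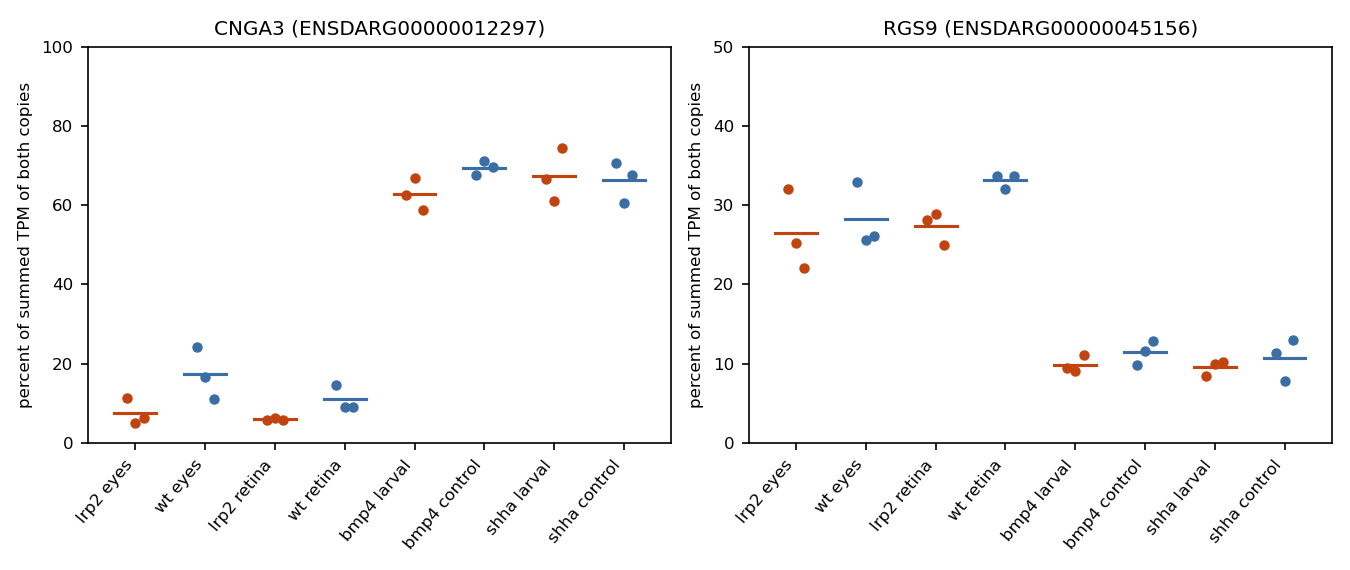
Share of CNGA3 (ENSDARG00000012297, left) and of RGS9 (ENSDARG00000045156, right) in the summed TPM of the 2 copies with the same symbol (vertical axes, percent, with different upper limits), in the whole-eye, retina and larval groups (horizontal axes); points are libraries and lines are means of 3. The CNGA3 copy holds 5.91% to 17.3% of 1-month and 62.8% to 69.5% of larval transcripts by group mean, and the RGS9 copy holds more in 1-month than in larval eyes.

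Genes whose levels ran most like those of the 4 genes were ranked by Pearson correlation of log2(TPM + 1) over the 24 libraries of 1 month, among genes with a mean of at least 1 TPM. These libraries share tissue and genotype differences, so the values describe and are not tested. The closest to guca1d was pde5aa (r = 0.975), followed by kcng4b, SPSB2, KCTD16 and camkk1b. GUCA1A was closest to si:dkey-191g9.5 (0.990) and to cngb3.2 (0.989), the channel subunit that was also higher in lrp2 retina, then to trim110 and hs3st3l. CNGA3 was closest to ANKRD33B (0.988), then to rp1l1b, zgc:158785, elovl8a and si:ch211-276i12.4. RGS9 was closest to GOT1 (0.996) and to SLC24A1 (0.995), the exchanger above, then to SH3GL2, si:ch211-195b15.7 and rgs9bp (0.993), its anchor.

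With the mean of each tissue removed, over the 12 libraries of whole eyes and retina, other genes came first, apart from ANKRD33B for CNGA3. The closest to guca1d were ENSDARG00000093647 and TOB1 (each r = 0.980), then slc25a24, rp1l1b and usp2b. GUCA1A was closest to ypel2a (0.975), F10, tmem176l.1, SERPINE3 and ALAD. CNGA3 was closest to usp2b (0.964), MAPK6, ANKRD33B, IVNS1ABP and ITPKC. RGS9 was closest to TSC22D1 (0.991), ITM2C, RCVRN (ENSDARG00000009637, 0.984), IRS2 and zgc:154093. Between the 4 genes themselves, r was 0.954 for guca1d with RGS9, 0.903 for guca1d with CNGA3 and 0.820 for CNGA3 with RGS9. It was −0.987 for guca1d with GUCA1A, −0.935 for RGS9 with GUCA1A and −0.876 for CNGA3 with GUCA1A. All of these contain the genotype difference for which genes were chosen.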

How the data were processed

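The authors deposited gene tables with expected counts and TPM, 1 table for the 24 libraries of 1 month and 1 for each larval line, each scaled separately. The submitters' processing notes name Bowtie2, HISAT and the build GRCz10. Tool versions, counter, annotation release and strand setting were not given in the sources used here. Values per transcript and FPKM were not used here. A gene table named 26108 of 31916 identifiers.

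For tests, the expected counts the authors deposited were first rounded to integers and then fitted by edgeR 4.0.16 under R 4.3.3 (filterByExpr, TMM, quasi-likelihood F test with robust dispersion, two-sided, Benjamini-Hochberg over all genes tested), a procedure tested on simulated data. The lrp2 and larval comparisons used their own 6 libraries, wild-type tissues 1 fit of 12 libraries, and differences between tissues 1 fit of 24. SE came from the F statistic. The alternatives were DESeq2 1.42.0, its size factors in edgeR, no count filter, a fit of all 24 libraries, each library left out, and the replicate number as a block. Likeness used a pseudocount of 1 TPM. No pair of libraries in a group agreed within counting noise, so all 36 were used.

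Replicate numbers paired the larval libraries: deviations from group means correlated at 0.510, 0.601 and 0.656 for bmp4 and 0.272, 0.377 and 0.250 for shha. Wild-type sclera libraries also correlated best with their own number, at 0.250, 0.123 and 0.024 in RPE and 0.033, 0.019 and 0.086 in retina. The main fits of wild-type tissues did not use the number. The labels do not say what a number means. The members and lists were chosen with earlier results of these data known, and the decision to give the 4 genes no p in whole eyes and retina was made with their values in view. Genes named are the 4, their families and complexes, up to 4 called genes with the largest change per role, genes that make up a small count, and the 5 most alike by each measure. Some genes that this rule names are not reported here.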

Additional observations from a re-analysis of the deposited data

How the results depend on the processing

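Of the 4 genes' log2 changes, these turned sign or crossed the threshold with another setting. With the DESeq2 Wald test, GUCA1A in lrp2 RPE passed the threshold (2.51). The near-zero RGS9 change in bmp4 eyes was 0.0033 with DESeq2 size factors and 0.0024 with the Wald test. In wild-type sclera over RPE, guca1d was 0.015 with DESeq2 size factors and 0.011 with the replicate block, which also ended the RGS9 call (−1.41). The block changed no other call of the 4 genes, and the cause was not tested for any of these. Of the other phototransduction genes, the 1 called lower in whole eyes became 10 with DESeq2, 3 with no count filter, 4 with the replicate block and 0 with all 24 libraries, and leaving out single libraries gave 0 to 6. In retina the fit of all 24 libraries called 0 higher and 1 lower, and leaving out libraries gave 5 to 11 higher.

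Leaving out each library in turn moved the lrp2 change of CNGA3 in retina between −1.20 and −0.80, and that of RGS9 between −0.72 and 0.81 in RPE and −1.50 and 0.18 in sclera. In bmp4 eyes guca1d ranged from −0.33 to 0.68, GUCA1A from −0.27 to 0.23 and RGS9 from −0.080 to 0.065. In shha eyes CNGA3 ranged from −0.18 to 0.038, guca1d from −0.42 to 0.39, GUCA1A from −0.23 to 0.21 and RGS9 from −0.23 to 0.31. In wild-type sclera over RPE, CNGA3 ranged from −2.91 to −1.80, guca1d from −0.73 to 0.65, GUCA1A from −0.66 to 1.47 and RGS9 from −2.14 to −0.59. The RPE minus retina difference of the lrp2 change ranged from −0.95 to 1.19 for CNGA3, 0.84 to 2.97 for guca1d, 0.97 to 2.56 for GUCA1A and 0.11 to 1.63 for RGS9. The sclera minus retina difference ranged from −0.85 to 1.78 for guca1d, −0.65 to 1.93 for GUCA1A and −0.73 to 1.00 for RGS9. In both differences guca1d rests on few counts outside the retina, as does CNGA3. The whole-eye and retina changes of all 4 genes kept their direction under every setting run. The genotypes did not overlap in TPM for these genes, so leaving out a library could not be expected to turn a sign. The steady direction therefore adds no support for these changes.

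Counts over all genes moved more. Whole eyes had 200 called genes, 1034 with DESeq2, 409 with the block, 461 with all 24 libraries and 1 to 359 with a library left out. RPE had 289, 1819, 0 (with the block over 2 shared numbers), 1994 and 4 to 549 in the same order. Retina had 3909, 1745 with all 24 libraries and 2020 to 3477 with a library left out. Sclera had 1404, 3020 with DESeq2, 368 with the block, 2250 with all 24 and 355 to 1090 with a library left out. The bmp4 comparison had 22, 105 with DESeq2, 609 with the block and 6 to 12 with a library left out, and shha 0, 2 with DESeq2. With a pseudocount of 0.1 TPM, 3 of the 5 genes most alike were shared for guca1d, 2 for GUCA1A, 1 for CNGA3 and 2 for RGS9. In RPE and sclera, guca1d and CNGA3 had too few counts for a test. Same-numbered lrp2 and wild-type libraries had lower correlations of their deviations than the larval pairs. These were 0.213, 0.159 and 0.018 in whole eyes, 0.039 and below in retina, 0.014 and below in sclera, and 0.007 and −0.282 in RPE. Only lrp2 whole eyes replicate 1 and lrp2 retina replicate 11 correlated best with their own number.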
